A study of Homo sapiens with 8 samples.

Results

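The serine, one-carbon and cysteine synthesis enzymes comprised 10 genes, PHGDH, PSAT1, PSPH, SHMT1, SHMT2, MTHFD1, MTHFD1L, MTHFD2, ALDH1L2 and CTH. They were taken by symbol from a table of log2 expression values for 25066 genes, and all 10 were found there. The cells were TMD8, an established human lymphoma line of the activated B cell-like (ABC) class of diffuse large B cell lymphoma, transduced by lentivirus to express Cas9. There were 4 groups of 2 RNA-seq libraries. The first held sgKLHL14 cells (a guide RNA against KLHL14, genotype given as KLHL14(-/-)) with ibrutinib at 2 nM for 24 h, and the second held the same cells with the solvent DMSO for 24 h. The remaining groups held sgCTRL cells (a control guide RNA, genotype given as KLHL14(+/+)) with ibrutinib and with DMSO at the same dose and time. Ibrutinib binds covalently to Bruton tyrosine kinase (BTK), which relays signals from the B cell receptor, and blocks it. KLHL14 is a substrate adaptor of a ubiquitin ligase. Whether the cells with either guide were 1 clone or a pool is not given in the sources used here. The comparisons asked how BTK inhibition changed gene expression and whether the KLHL14 guide changed that response.

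PHGDH, PSAT1 and PSPH make serine from the glycolytic intermediate 3-phosphoglycerate in consecutive steps. SHMT1 in the cytosol and SHMT2 in mitochondria then split serine into glycine and a one-carbon unit carried on tetrahydrofolate, and MTHFD1, MTHFD1L, MTHFD2 and ALDH1L2 pass that unit between its oxidation states and compartments, for use in purine and thymidylate synthesis. CTH, the last enzyme of transsulfuration, releases cysteine from cystathionine, whose carbon skeleton comes from serine. Several of these genes are known targets of the transcription factor ATF4 in the amino acid response, and proliferating lymphocytes are known for a high demand for serine and one-carbon units.

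The libraries held 12333876 to 23467110 counted reads. Libraries of a group correlated at r = 0.994 to 0.996 over the 12531 genes that passed a level filter, a mean log2 value of at least 4.2 over all 8 libraries, and differed by more than sampling noise in each group. The labels do not state whether the 2 libraries of each group were grown as separate cultures, and the p-values therefore rest on a spread between libraries that may be technical. All 7 B cell markers passed the filter. Of 7 T cell markers 2 passed, CD3D, CD3E and TRAT1 had 0 reads in all 8 libraries, and the summed level of the list was 94.3 to 105 in sgKLHL14 ibrutinib, against 50.1 to 57.4 in sgKLHL14 DMSO, and 91.6 to 99.2 in sgCTRL ibrutinib, against 45.3 to 56.1 in sgCTRL DMSO (linear scale of the deposited values). Of 7 myeloid markers 1 passed, MPO had 0 reads, and the sum was 46.0 to 47.1 in sgKLHL14 ibrutinib, against 35.1 to 46.4 in sgKLHL14 DMSO, and 55.6 to 93.2 in sgCTRL ibrutinib, against 34.9 to 38.1 in sgCTRL DMSO. Of 7 epithelial and fibroblast markers 4 passed, with a summed level of 1552 to 1606 in sgKLHL14 ibrutinib, against 1426 to 1460 in sgKLHL14 DMSO, and 1658 to 1701 in sgCTRL ibrutinib, against 1709 to 1760 in sgCTRL DMSO. Of these 4, COL1A1 was called higher with ibrutinib (0.91 with sgKLHL14 and 1.06 with sgCTRL), KRT8 lower (-0.60 and -0.47), and CDH1 higher with sgKLHL14 (0.24). Of the 7 B cell markers, 6 were called higher and 1 lower with sgKLHL14, and 5 higher and 1 lower with sgCTRL. The T cell markers had 2 called higher with sgKLHL14 and 1 with sgCTRL, and the myeloid markers 0 and 1. Among all tested genes, 39.3% were called in either direction with sgKLHL14 and 35.1% with sgCTRL. The part of these markers in the results was not tested. BTK had log2 values between 13.72 and 14.05. The mRNA of the targeted gene, KLHL14, showed no decrease where sgKLHL14 is the label, with log2 values of 13.16 and 13.16 in ibrutinib and 12.19 and 12.33 in DMSO, against 12.30 and 12.30 with sgCTRL in ibrutinib and 12.07 and 12.06 with sgCTRL in DMSO. The difference passed the test in ibrutinib (0.86, adjusted p = 2.62e-08) and not in DMSO (0.20, adjusted p = 0.107). Small deletions made by Cas9 need not change a gene's read count, but the cause of the KLHL14 values was not tested. Here sgKLHL14 is used as the label of the libraries.

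All 10 enzymes were lower with ibrutinib than with DMSO, with either guide. Each passed the test, at a Benjamini-Hochberg adjusted p under 0.05 over the 12531 genes in limma, with sgKLHL14, where 19.4% of all tested genes were called lower, and with sgCTRL, where 17.0% were. The median log2 change of the 10 was -0.93 with sgKLHL14 and -0.99 with sgCTRL, against 0.010 and 0.018 over all tested genes. For each of the 10, the 4 ibrutinib libraries lay under all 4 DMSO libraries, as they did for 21.2% of tested genes. The 10 enzymes were chosen with earlier results of these data known, so these shares are a background and no independent test. The decreases ranged widely: the mitochondrial MTHFD1L and ALDH1L2 and the cysteine enzyme CTH fell to between 18.6% and 41.3% of their DMSO levels, whereas MTHFD1, MTHFD2 and SHMT1 stayed between 69.3% and 81.3%. These are bulk libraries, in which fewer cells with an RNA and less of it per cell cannot be told apart.

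**Figure D1:**
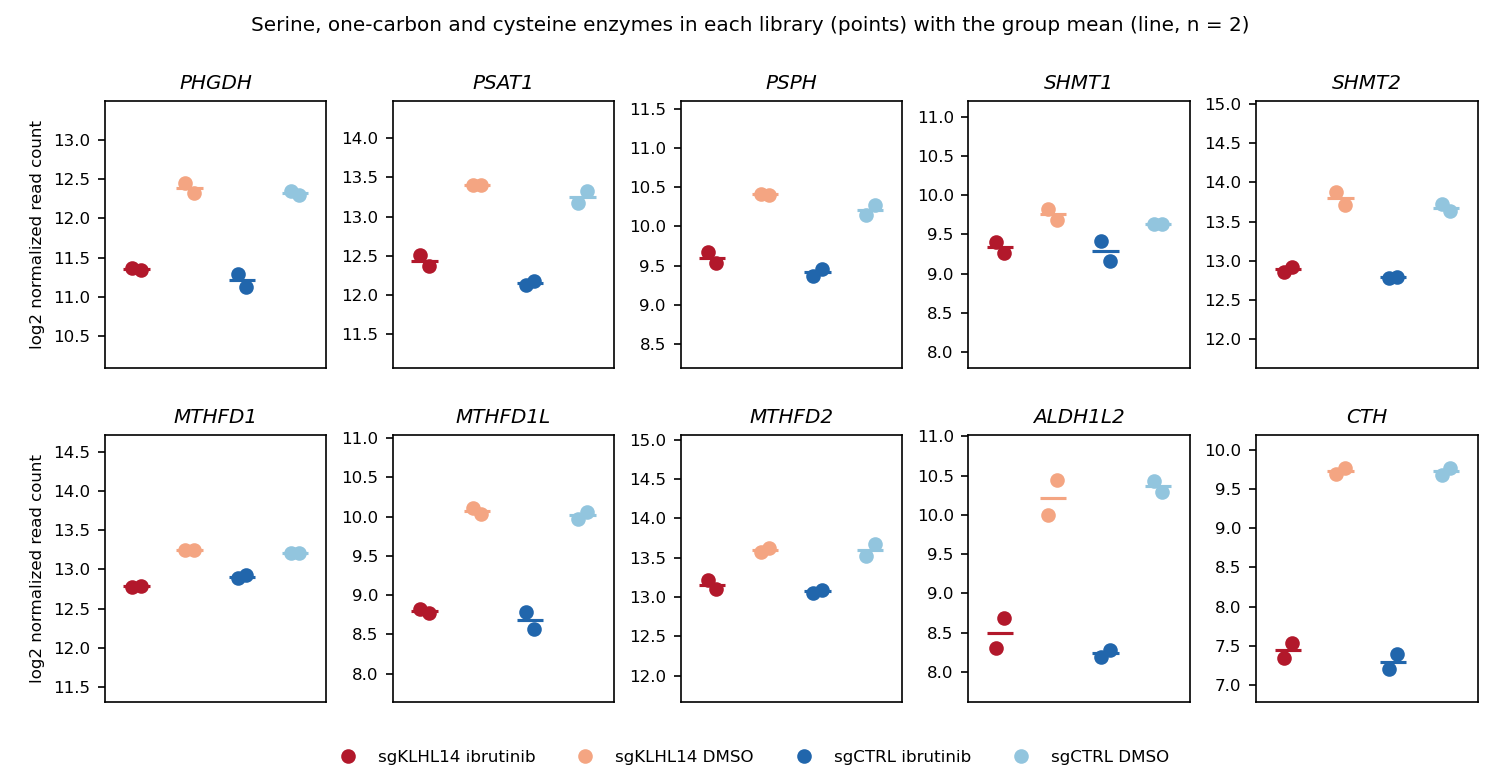
Deposited log2 values (vertical axis, log2 of normalized read count) of the 10 enzymes in each of the 8 libraries, as points, with the mean of each group of 2 as a line. Every axis spans the same number of log2 units. The ibrutinib points lie under the DMSO points in every panel, by the narrowest margin for SHMT1 (0.22) and the widest for CTH (2.14).

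The 3 enzymes of serine synthesis fell to between 46.4% and 57.5% of their DMSO levels. PHGDH, 3-phosphoglycerate dehydrogenase, catalyses the first and committed step. PHGDH had log2 values of 11.36 and 11.34 in the sgKLHL14 ibrutinib libraries, against 12.45 and 12.33 in the sgKLHL14 DMSO libraries. With sgCTRL, PHGDH was at 11.30 and 11.13 in ibrutinib, against 12.35 and 12.30 in DMSO. The lowest DMSO library was 0.93 log2 units above the highest ibrutinib library. PHGDH fell, with log2 changes of -1.04 with sgKLHL14 (adjusted p = 6.93e-10) and -1.11 with sgCTRL (adjusted p = 2.78e-10, SE 0.0673 for both), to 48.8% and 46.4% of the DMSO level. PSAT1, phosphoserine aminotransferase, transfers an amino group from glutamate in the second step. PSAT1 had log2 values of 12.51 and 12.37 in the sgKLHL14 ibrutinib libraries, against 13.40 and 13.41 in the sgKLHL14 DMSO libraries. With sgCTRL, PSAT1 was at 12.13 and 12.17 in ibrutinib, against 13.17 and 13.32 in DMSO. Within each treatment, both sgKLHL14 libraries lay above both sgCTRL libraries, as for 21.6% of tested genes in ibrutinib and 21.5% in DMSO, while the treatments did not overlap. PSAT1 fell, with log2 changes of -0.97 with sgKLHL14 (adjusted p = 9.71e-10) and -1.10 with sgCTRL (adjusted p = 1.65e-10, SE 0.0642 for both), to 51.2% and 46.7% of the DMSO level. PSPH, phosphoserine phosphatase, removes the phosphate in the last step. PSPH had log2 values of 9.67 and 9.54 in the sgKLHL14 ibrutinib libraries, against 10.41 and 10.40 in the sgKLHL14 DMSO libraries. With sgCTRL, PSPH was at 9.37 and 9.46 in ibrutinib, against 10.15 and 10.28 in DMSO. The ibrutinib libraries were again all under the DMSO libraries. PSPH fell, with log2 changes of -0.81 with sgKLHL14 (adjusted p = 2.76e-07) and -0.80 with sgCTRL (adjusted p = 3.14e-07, SE 0.0822 for both), to 57.2% and 57.5% of the DMSO level.

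**Figure D2:**
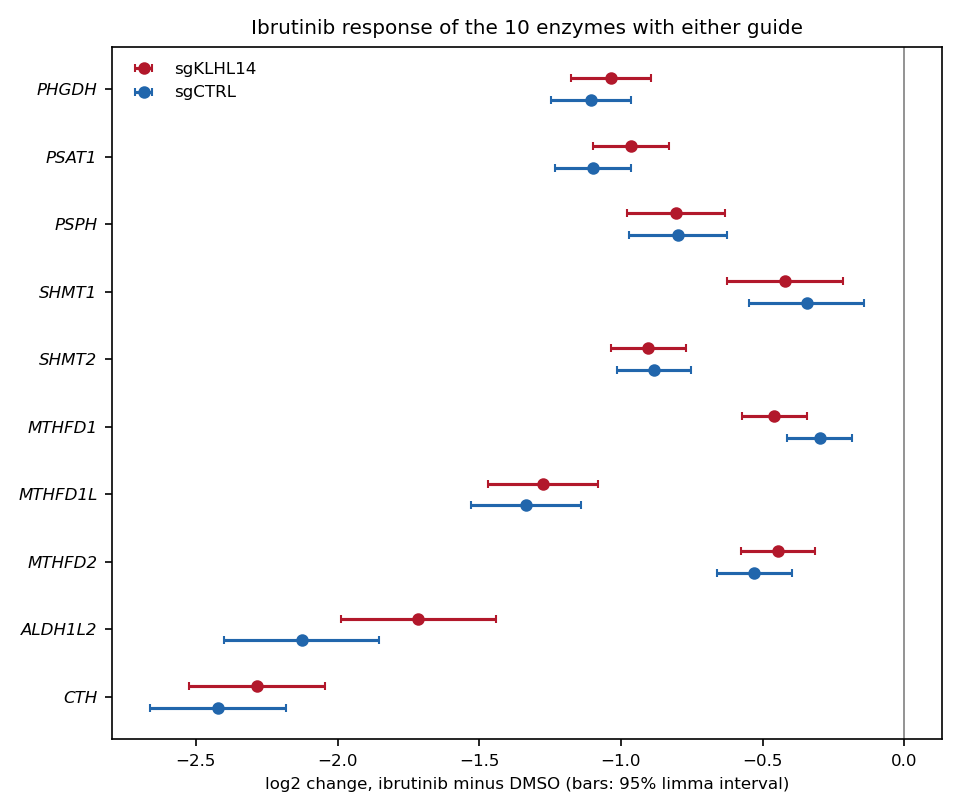
Log2 change of the 10 enzymes, ibrutinib minus DMSO (horizontal axis), with sgKLHL14 (red) and sgCTRL (blue); points are limma estimates from 2 against 2 libraries and bars their 95% confidence intervals. All 20 intervals lie under 0, from CTH at -2.42 with sgCTRL to MTHFD1 at -0.30 with sgCTRL.

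Both serine hydroxymethyltransferases fell, and the mitochondrial enzyme had the larger log2 change. SHMT2, the mitochondrial enzyme, is the main source of one-carbon units in many proliferating cells. SHMT2 had log2 values of 12.86 and 12.93 in the sgKLHL14 ibrutinib libraries, against 13.88 and 13.72 in the sgKLHL14 DMSO libraries. With sgCTRL, SHMT2 was at 12.79 and 12.80 in ibrutinib, against 13.72 and 13.63 in DMSO. In each treatment the 4 libraries of SHMT2 lay close together, and the treatments were well apart. SHMT2 fell, with log2 changes of -0.90 with sgKLHL14 (adjusted p = 1.70e-09) and -0.88 with sgCTRL (adjusted p = 2.20e-09, SE 0.0627 for both), to 53.5% and 54.2% of the DMSO level. SHMT1, the cytosolic enzyme, can run the same reaction in either direction. SHMT1 had log2 values of 9.41 and 9.26 in the sgKLHL14 ibrutinib libraries, against 9.83 and 9.69 in the sgKLHL14 DMSO libraries. With sgCTRL, SHMT1 was at 9.42 and 9.16 in ibrutinib, against 9.64 and 9.63 in DMSO. The replicates of SHMT1 in ibrutinib were further apart than those in DMSO with sgCTRL, and the treatments were separated by the smallest margin of the 10 enzymes. SHMT1 fell, with log2 changes of -0.42 with sgKLHL14 (adjusted p = 0.00190) and -0.35 with sgCTRL (adjusted p = 0.00942, SE 0.0973 for both), to 74.7% and 78.7% of the DMSO level. Without replicate 2 of sgCTRL ibrutinib the sgCTRL change was -0.22 (adjusted p = 0.191), and without replicate 1 of sgCTRL DMSO it was -0.34 (adjusted p = 0.0518), so this call rests on those libraries.

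Among the folate-dependent enzymes that follow, the 2 mitochondrial enzymes ALDH1L2 and MTHFD1L had the largest decreases. MTHFD1 is the trifunctional cytosolic enzyme that interconverts methylene-, methenyl- and formyl-tetrahydrofolate and joins formate to tetrahydrofolate. MTHFD1 had log2 values of 12.78 and 12.79 in the sgKLHL14 ibrutinib libraries, against 13.24 and 13.24 in the sgKLHL14 DMSO libraries. With sgCTRL, MTHFD1 was at 12.89 and 12.93 in ibrutinib, against 13.21 and 13.21 in DMSO. Replicates of MTHFD1 were nearly superimposed, and the ibrutinib and DMSO libraries did not overlap. MTHFD1 fell, with log2 changes of -0.46 with sgKLHL14 (adjusted p = 2.03e-06) and -0.30 with sgCTRL (adjusted p = 0.000293, SE 0.0547 for both), to 72.8% and 81.3% of the DMSO level. MTHFD1L is the mitochondrial synthetase that releases formate for export to the cytosol. MTHFD1L had log2 values of 8.82 and 8.77 in the sgKLHL14 ibrutinib libraries, against 10.10 and 10.04 in the sgKLHL14 DMSO libraries. With sgCTRL, MTHFD1L was at 8.78 and 8.57 in ibrutinib, against 9.97 and 10.06 in DMSO. The treatments of MTHFD1L were separated by a gap of 1.15 log2 units. MTHFD1L fell, with log2 changes of -1.28 with sgKLHL14 (adjusted p = 3.02e-09) and -1.34 with sgCTRL (adjusted p = 1.69e-09, SE 0.0928 for both), to 41.3% and 39.6% of the DMSO level. MTHFD2 is the mitochondrial dehydrogenase and cyclohydrolase that is typical of embryonic and proliferating cells. MTHFD2 had log2 values of 13.21 and 13.10 in the sgKLHL14 ibrutinib libraries, against 13.58 and 13.62 in the sgKLHL14 DMSO libraries. With sgCTRL, MTHFD2 was at 13.05 and 13.09 in ibrutinib, against 13.52 and 13.67 in DMSO. The decrease of MTHFD2 was smaller than the decreases of the other mitochondrial enzymes, and its ibrutinib libraries still all lay under its DMSO libraries. MTHFD2 fell, with log2 changes of -0.45 with sgKLHL14 (adjusted p = 1.51e-05) and -0.53 with sgCTRL (adjusted p = 2.25e-06, SE 0.0630 for both), to 73.4% and 69.3% of the DMSO level. ALDH1L2, the mitochondrial 10-formyl-tetrahydrofolate dehydrogenase, oxidizes the one-carbon unit to CO2 and yields NADPH. ALDH1L2 had log2 values of 8.31 and 8.69 in the sgKLHL14 ibrutinib libraries, against 9.99 and 10.44 in the sgKLHL14 DMSO libraries. With sgCTRL, ALDH1L2 was at 8.19 and 8.28 in ibrutinib, against 10.44 and 10.29 in DMSO. Replicates of ALDH1L2 with sgKLHL14 were the most spread of the 10 enzymes, yet the treatments were far apart. ALDH1L2 fell, with log2 changes of -1.72 with sgKLHL14 (adjusted p = 5.91e-09) and -2.13 with sgCTRL (adjusted p = 3.26e-10, SE 0.131 for both), to 30.4% and 22.9% of the DMSO level.

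Promoter windows of 300 bases, 250 before the start and 50 from it on, were found for 7 of the 10 enzymes in RefSeq's GRCh38.p14 promoter table and searched on both strands for TGATGNAA (the core of the C/EBP-ATF response element), CACGTG (the E-box bound by MYC and related factors) and TGACNNNGC (the core of the antioxidant response element). Windows of 3 enzymes held a match, and those of 4, PHGDH, PSAT1, SHMT1 and CTH, held none. The window starts of PHGDH, SHMT1 and MTHFD2 lay 219, 63 and 53 bases from the transcript starts used for their lengths. A missing match is therefore a statement about the window only. The matches were in MTHFD1 (chr14:64388103-64388402, plus strand), MTHFD1L (chr6:150866083-150866382, plus strand) and MTHFD2 (chr2:74198365-74198664, plus strand), which are shown because they hold the matches, marked in capitals.
MTHFD1: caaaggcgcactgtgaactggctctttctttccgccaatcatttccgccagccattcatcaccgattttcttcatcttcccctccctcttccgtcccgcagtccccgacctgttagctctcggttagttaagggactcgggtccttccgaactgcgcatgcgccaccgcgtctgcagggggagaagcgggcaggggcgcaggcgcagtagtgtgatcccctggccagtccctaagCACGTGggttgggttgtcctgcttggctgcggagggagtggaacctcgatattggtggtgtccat
MTHFD1L: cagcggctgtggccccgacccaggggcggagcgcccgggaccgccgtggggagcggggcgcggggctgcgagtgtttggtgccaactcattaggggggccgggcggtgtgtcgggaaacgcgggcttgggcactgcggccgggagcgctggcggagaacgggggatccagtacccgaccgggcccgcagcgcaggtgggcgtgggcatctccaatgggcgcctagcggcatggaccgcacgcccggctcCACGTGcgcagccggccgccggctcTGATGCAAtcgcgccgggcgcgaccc
MTHFD2: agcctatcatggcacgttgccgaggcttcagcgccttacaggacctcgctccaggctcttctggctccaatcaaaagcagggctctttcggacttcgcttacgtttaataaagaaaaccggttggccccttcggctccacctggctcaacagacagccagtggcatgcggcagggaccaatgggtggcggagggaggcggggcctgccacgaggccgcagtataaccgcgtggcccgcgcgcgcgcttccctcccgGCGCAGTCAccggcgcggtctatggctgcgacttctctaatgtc
MTHFD1 held the E-box, with its first base 15 bases before the start. MTHFD1L, for which the table lists 4 starts, is shown at the one nearest the transcript start used for its length, 784 bases away, so the window does not cover that start. It held an E-box from 1 base before the start and TGATGCAA from base 25 on, counting the start as base 1. MTHFD2 held GCGCAGTCA, the antioxidant core read on the other strand, from base 7 on in the same count. Of 35116 promoters of the same length, 3.62% held TGATGNAA, 7.26% CACGTG and 13.3% TGACNNNGC, so each match is one that many promoters have. The matches are letters in a window, and no binding was measured.

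CTH had the largest decrease of the 10 enzymes with either guide. CTH, cystathionine gamma-lyase, makes cysteine, the limiting amino acid of glutathione. CTH had log2 values of 7.35 and 7.54 in the sgKLHL14 ibrutinib libraries, against 9.68 and 9.77 in the sgKLHL14 DMSO libraries. With sgCTRL, CTH was at 7.20 and 7.39 in ibrutinib, against 9.68 and 9.76 in DMSO. The 4 DMSO libraries of CTH lay close to each other, and its ibrutinib libraries were 2.14 log2 units or more under them. CTH fell, with log2 changes of -2.28 with sgKLHL14 (adjusted p = 1.85e-11) and -2.42 with sgCTRL (adjusted p = 8.39e-12, SE 0.114 for both), to 20.5% and 18.6% of the DMSO level. Ranked from the most decreased of the 12531 tested genes, CTH was number 23 with sgKLHL14 and 19 with sgCTRL, and ALDH1L2 was number 50 and 28. MTHFD1L was number 130 and 126, whereas MTHFD1, the least changed with sgCTRL, was number 1125 and 1856. CBS, which makes the cystathionine that CTH splits, was listed at 0 in 7 of the 8 libraries and had 1 read in replicate 2 of sgCTRL DMSO. A count of 0 allows up to 3 reads at these depths, so no change of CBS could be measured.

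Levels of different enzymes were compared after division by the length of 1 annotated transcript each (GENCODE, matched by RefSeq accession), as log2 of the normalized count per kb and as means of 2 libraries. SHMT2 was the most abundant in every group, at 11.55 in sgKLHL14 ibrutinib, 12.45 in sgKLHL14 DMSO, 11.45 in sgCTRL ibrutinib and 12.33 in sgCTRL DMSO. ALDH1L2 was the least abundant in every group, at 5.58 in sgKLHL14 ibrutinib, 7.30 in sgKLHL14 DMSO, 5.32 in sgCTRL ibrutinib and 7.45 in sgCTRL DMSO. In DMSO the order from the top was SHMT2, PSAT1, MTHFD1, MTHFD2, PHGDH, PSPH, CTH, SHMT1, MTHFD1L and ALDH1L2 with either guide. In ibrutinib CTH stood below SHMT1 and MTHFD1L, in place 9 against place 7 in DMSO, at 6.59 in sgKLHL14 ibrutinib, against 8.87 in sgKLHL14 DMSO, and 6.45 in sgCTRL ibrutinib, against 8.87 in sgCTRL DMSO. With sgCTRL, ibrutinib also placed MTHFD1 (11.26) above PSAT1 (11.02), which had the reverse order in the other 3 groups. In none of the 4 groups did the libraries of neighbours in the order overlap; with 2 libraries a group, no test of the order was made. Other transcripts of a gene would move its place.

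Ratios within a library compared each mitochondrial enzyme with its cytosolic counterpart. They are log2 differences of the deposited values, not per length, so only their movement between groups is read, and no test was made. SHMT2 over SHMT1 was 3.45 and 3.66 in the sgKLHL14 ibrutinib libraries, against 4.05 and 4.03 in the sgKLHL14 DMSO libraries, and 3.37 and 3.63 in sgCTRL ibrutinib, against 4.08 and 4.00 in sgCTRL DMSO. All 4 ibrutinib ratios lay under all 4 DMSO ratios. MTHFD1L over MTHFD1 was -3.96 and -4.02 in the sgKLHL14 ibrutinib libraries, against -3.14 and -3.21 in the sgKLHL14 DMSO libraries, and -4.11 and -4.36 in sgCTRL ibrutinib, against -3.24 and -3.15 in sgCTRL DMSO, again with the ibrutinib ratios lower. MTHFD2 over MTHFD1 was 0.43 and 0.31 in the sgKLHL14 ibrutinib libraries, against 0.34 and 0.38 in the sgKLHL14 DMSO libraries, and 0.16 and 0.16 in sgCTRL ibrutinib, against 0.32 and 0.47 in sgCTRL DMSO, with overlapping treatments for sgKLHL14 and lower ibrutinib values for sgCTRL. ALDH1L2 over ALDH1L1, its cytosolic counterpart, was -0.62 and -0.14 in the sgKLHL14 ibrutinib libraries, against 1.12 and 1.51 in the sgKLHL14 DMSO libraries, and -0.90 and -0.69 in sgCTRL ibrutinib, against 1.63 and 1.29 in sgCTRL DMSO. Its ibrutinib ratios were all lower than its DMSO ratios. ALDH1L1 itself had log2 changes of -0.018 (adjusted p = 0.905) with sgKLHL14 and 0.12 (adjusted p = 0.376) with sgCTRL, neither of which passed the test.

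**Figure D3:**
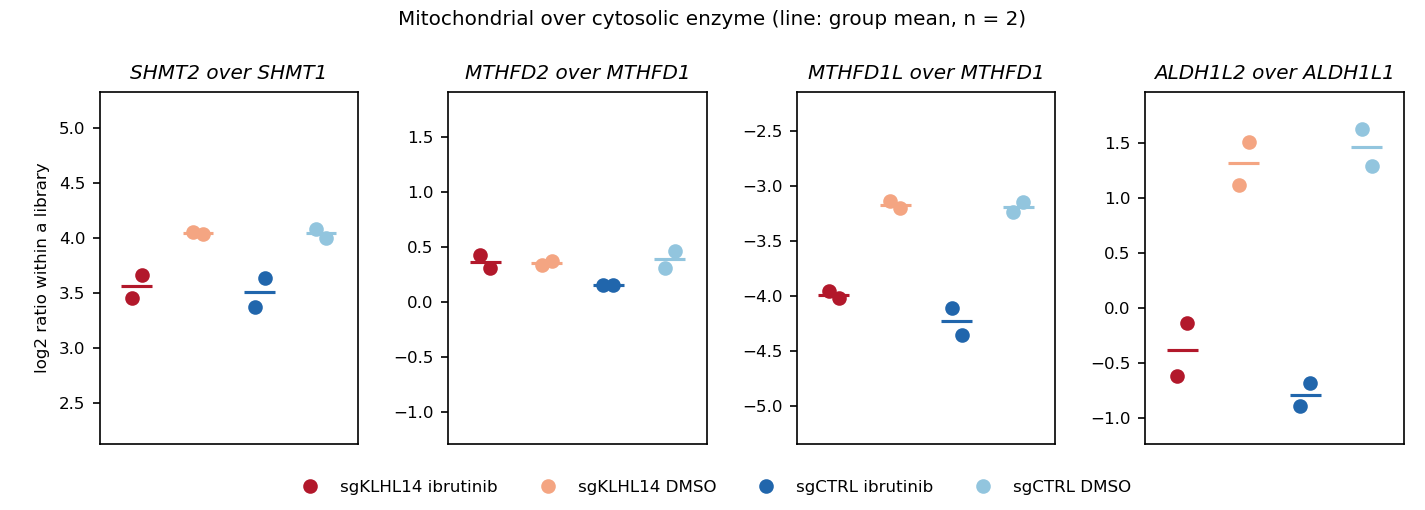
Log2 ratio of a mitochondrial enzyme to its cytosolic counterpart within each library (vertical axis), as points for the 8 libraries with the mean of each group of 2 as a line. For SHMT2 over SHMT1, MTHFD1L over MTHFD1 and ALDH1L2 over ALDH1L1 the ibrutinib points lie under the DMSO points with either guide; for MTHFD2 over MTHFD1 they do so with sgCTRL only, at a mean of 0.16 in ibrutinib and 0.39 in DMSO.

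Lists of genes around the 10 enzymes had median log2 changes nearer to 0, and several had calls in both directions. The glycine cleavage and serine or glycine breakdown list had 5 of 8 genes above the level filter. Their median log2 changes were -0.20 with sgKLHL14 and -0.14 with sgCTRL. With sgKLHL14 0 were called higher and 1 lower, and with sgCTRL 1 higher and 1 lower, where 19.9% and 18.1% of all tested genes were called higher with the 2 guides. Calls in either direction made up 39.3% of all tested genes with sgKLHL14 and 35.1% with sgCTRL. The calls were GCAT with sgKLHL14 (-0.47, adjusted p = 0.00168), and with sgCTRL AMT (0.64, adjusted p = 0.0259) and DLD (-0.16, adjusted p = 0.0443). Each of the 3 calls was lost without 1 library at least: GCAT without replicate 1 of sgKLHL14 DMSO (-0.32, adjusted p = 0.0504), AMT without replicate 1 of sgCTRL DMSO (0.48, adjusted p = 0.191) or replicate 2 of sgCTRL ibrutinib (0.45, adjusted p = 0.231), and DLD without any 1 of the 4 sgCTRL libraries (adjusted p between 0.0794 and 0.234). GLDC, the decarboxylase that starts glycine cleavage, was under the filter, with 1 and 1 reads in sgKLHL14 ibrutinib, against 11 and 10 in sgKLHL14 DMSO, and 0 and 0 in sgCTRL ibrutinib, against 7 and 10 in sgCTRL DMSO.

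The other folate cycle genes and folate carriers had 12 of 13 above the filter, of which 2 were called higher and 5 lower with sgKLHL14 and 2 were called higher and 3 lower with sgCTRL, at medians of -0.071 and -0.059. For comparison, 19.4% of all tested genes were called lower with sgKLHL14 and 17.0% with sgCTRL. GGH, which trims the glutamate tail of folates, MTHFS, a folate interconverting enzyme, and SLC19A1, the reduced folate carrier, were lower with both guides. Their log2 changes were -0.43, -0.35 and -0.47 with sgKLHL14 and -0.38, -0.27 and -0.40 with sgCTRL. TYMS, thymidylate synthase, was lower with sgKLHL14 at -0.40 (adjusted p = 0.000150) and had -0.096 (adjusted p = 0.309) with sgCTRL, where it did not pass. The sgCTRL calls were sensitive to 1 library: lower calls numbered 1 without replicate 2 of sgCTRL DMSO and 0 without replicate 2 of sgCTRL ibrutinib, and higher calls 1 without that ibrutinib library.

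The methionine cycle, which takes up one-carbon units for methylation, had 7 of 11 genes above the filter, of which 1 were called higher and 2 lower with sgKLHL14 and 1 were called higher and 1 lower with sgCTRL, at medians of -0.0075 and -0.040. The 3 of 7 and 2 of 7 called are near the shares of all tested genes called, 39.3% and 35.1%. AHCYL1, a relative of S-adenosylhomocysteine hydrolase, was lower at -0.34 (adjusted p = 0.000210) with sgKLHL14 and -0.45 (adjusted p = 1.60e-05) with sgCTRL. The others called were MAT2B, the regulatory subunit of methionine adenosyltransferase, at 0.19 with sgKLHL14 and 0.26 with sgCTRL, and MAT2A, its catalytic subunit, at -0.15 with sgKLHL14. MAT2A did not pass with sgCTRL (-0.14, adjusted p = 0.0554). With sgKLHL14, the MAT2B call was lost without any 1 of 6 libraries, all but the 2 of sgCTRL DMSO (highest adjusted p = 0.128), and the MAT2A call without any 1 of the ibrutinib libraries or replicate 2 of sgKLHL14 DMSO (highest adjusted p = 0.170). With sgCTRL, MAT2B lost its call without replicate 1 of sgCTRL DMSO (0.16, adjusted p = 0.141) or replicate 2 of sgCTRL ibrutinib (0.24, adjusted p = 0.0746).

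The cysteine and glutathione genes had 12 of 14 above the filter. With sgKLHL14 0 were called higher and 7 lower, and with sgCTRL 0 higher and 2 lower, at medians of -0.25 and -0.17. Among all tested genes the lower calls were 19.4% and 17.0%. CHAC1, which degrades glutathione, had the largest change, at -2.17 (adjusted p = 7.24e-11) with sgKLHL14 and -2.09 (adjusted p = 1.29e-10) with sgCTRL. GCLC, the catalytic subunit of the first enzyme of glutathione synthesis, was lower by a far smaller amount, at -0.26 and -0.25. Its sgCTRL call was lost without replicate 2 of sgCTRL DMSO (-0.19, adjusted p = 0.0903) or without either sgCTRL ibrutinib library (adjusted p = 0.0690 and 0.0559). MPST, a cysteine-derived sulfur transferase, was at -0.49 (adjusted p = 0.00108) with sgKLHL14. SLC7A11, which imports cystine, was not called with either guide. Its mean log2 value was 11.19 in sgKLHL14 ibrutinib, against 11.06 in sgKLHL14 DMSO. With sgCTRL it was 11.56 in ibrutinib, against 11.39 in DMSO. The 7 lower calls with sgKLHL14 became 3 without replicate 1 of sgKLHL14 DMSO, and the 2 with sgCTRL became 1 without either sgCTRL ibrutinib library.

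Carriers of serine and glycine had 9 of 10 genes above the filter, of which 1 were called higher and 5 lower with sgKLHL14 and 1 were called higher and 6 lower with sgCTRL, at medians of -0.34 and -0.28. Over all tested genes 19.4% and 17.0% were called lower. SLC6A9, the glycine transporter, had log2 changes of -1.84 (adjusted p = 3.03e-09) with sgKLHL14 and -1.84 (adjusted p = 2.96e-09) with sgCTRL. SLC1A5, a neutral amino acid exchanger known for glutamine, was at -0.91 (adjusted p = 5.42e-10) and -0.90 (adjusted p = 6.14e-10). SFXN1, the mitochondrial serine carrier that feeds SHMT2, was lower at -0.36 and -0.28, and the neutral amino acid carriers SLC38A1 and SLC38A2 were lower at -0.30 and -0.34 with sgKLHL14 and -0.32 and -0.24 with sgCTRL. The sgCTRL call of SLC38A2 was lost without replicate 2 of sgCTRL DMSO (-0.13, adjusted p = 0.172) or either sgCTRL ibrutinib library. SLC1A4, a serine and alanine exchanger, went the other way and was higher, at 0.42 (adjusted p = 1.69e-05) and 0.48 (adjusted p = 3.94e-06). In this list and the others, genes beyond the 3 with the smallest p in a comparison were named after their values were seen.

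**Figure D4:**
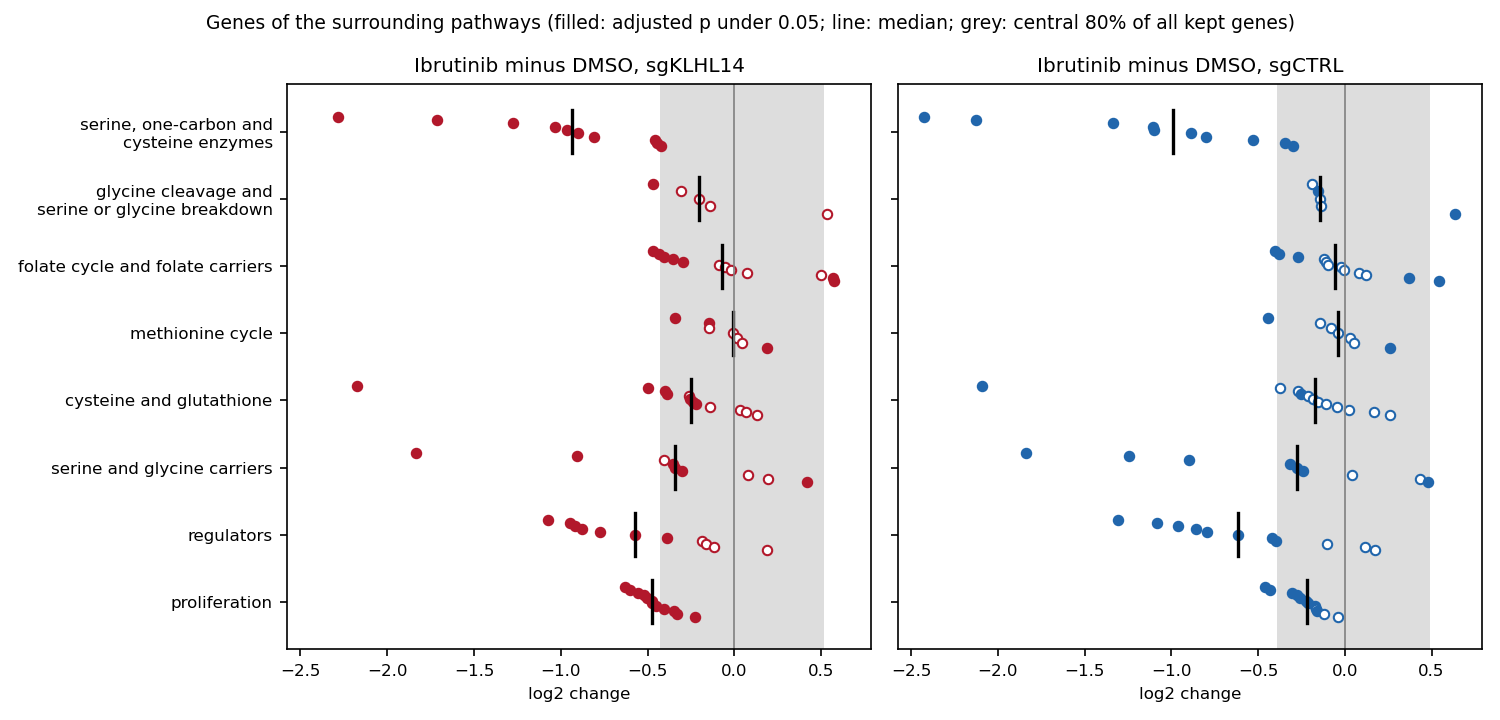
Log2 change, ibrutinib minus DMSO (horizontal axis), of each gene of the 10 enzymes and of 7 surrounding lists, with sgKLHL14 (left) and sgCTRL (right). Filled points passed the test, black lines are medians and the grey band holds the central 80% of all tested genes; the 10 enzymes have medians of -0.93 and -0.99, against -0.57 and -0.62 for the regulators and -0.47 and -0.22 for proliferation genes.

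All 11 genes of the regulator list, which includes known ATF4 targets such as TRIB3 and ATF5, were above the filter. With sgKLHL14 0 were called higher and 7 lower, and with sgCTRL 0 higher and 8 lower. Lower calls made up 19.4% of all tested genes with sgKLHL14 and 17.0% with sgCTRL. ATF4, which activates many serine and one-carbon genes when its translation rises, had log2 changes of -0.88 (adjusted p = 1.00e-09) with sgKLHL14 and -0.86 (adjusted p = 1.30e-09) with sgCTRL. TRIB3 and ATF5, known ATF4 targets, were at -1.07 and -0.95 with sgKLHL14 and -1.08 and -1.31 with sgCTRL. ATF4 targets were not examined as a set. CEBPG, a dimer partner of ATF4, was lower at -0.57 and -0.62. NFE2L2, which responds to oxidants and is known to act upstream of ATF4 in some tumours, was lower at -0.39 (adjusted p = 0.000766) and -0.42 (adjusted p = 0.000412). MYC, a general activator of biosynthetic genes, was lower at -0.40 (adjusted p = 0.000110) with sgCTRL and had -0.17 (adjusted p = 0.0543) with sgKLHL14, which did not pass; it passed without replicate 2 of sgKLHL14 DMSO (-0.23, adjusted p = 0.0227) or without either sgCTRL DMSO library (adjusted p = 0.0392 and 0.0390). RNA levels of a regulator do not give its protein or activity, and its part in the enzymes' decrease was not tested.

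Proliferation genes moved in the same direction as the enzymes, with medians of -0.47 with sgKLHL14 and -0.22 with sgCTRL, nearer to 0 than those of the 10 enzymes. All 12 were above the filter, of which 0 were called higher and 12 lower with sgKLHL14 and 0 were called higher and 9 lower with sgCTRL, or 5 lower without replicate 1 of sgCTRL ibrutinib. With sgKLHL14, MKI67 and MCM5 lost their calls without the level filter (limma adjusted p = 0.104 and 0.0934). They also lost them without the mean-variance trend of the fit (adjusted p = 0.126 and 0.122). Of all tested genes, 19.4% were called lower with sgKLHL14 and 17.0% with sgCTRL. The summed level of the proliferation genes was 88347 to 91483 in sgKLHL14 ibrutinib, against 118090 to 120740 in sgKLHL14 DMSO. With sgCTRL it was 99338 to 101590 in ibrutinib, against 113660 to 116400 in DMSO. The summed level of the 10 enzymes was 33912 to 34830 in sgKLHL14 ibrutinib, against 57251 to 58585 in sgKLHL14 DMSO, and 32371 to 32612 in sgCTRL ibrutinib, against 54314 to 55713 in sgCTRL DMSO. Examples were CCNA2, a cyclin of S and G2 phase, at -0.55 and -0.46, and MCM6, part of the replicative helicase, at -0.60 and -0.43. The part of proliferation in the enzymes' decrease was not tested.

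Between guides, 1 of the 10 enzymes passed the test in ibrutinib and 0 did in DMSO. The enzyme called in ibrutinib was PSAT1, which was higher in the libraries labelled sgKLHL14 by 0.29 (SE 0.0642, 95% interval 0.15 to 0.42, adjusted p = 0.0167), where 2.38% of tested genes were called. The call ended without replicate 1 of sgCTRL ibrutinib (0.27, adjusted p = 0.214), without replicate 2 of sgCTRL ibrutinib (0.31, adjusted p = 0.136) and without replicate 1 of sgKLHL14 ibrutinib (0.22, adjusted p = 0.215). The others ranged from -0.13 for MTHFD1 (95% interval -0.24 to -0.011, adjusted p = 0.321) to 0.27 for ALDH1L2 (-0.0084 to 0.54, adjusted p = 0.407). In DMSO, limma called 0 of 10, where 1.64% of tested genes were called; 2 of the 10, PSAT1 and PSPH, had an unadjusted p under 0.05, as 13.8% of tested genes had, and limma with voom weights on the recovered reads also called 0. PSAT1 differed there by 0.16 (95% interval 0.021 to 0.29, adjusted p = 0.278) and PSPH by 0.19 (0.022 to 0.37, adjusted p = 0.294). For CTH the difference was 0.14 in ibrutinib (-0.095 to 0.38) and 0.0045 in DMSO (-0.23 to 0.24), and both intervals include 0.

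The ibrutinib response itself, compared between guides as the change with sgKLHL14 minus the change with sgCTRL, was called for 0 of the 10 enzymes by limma, where 0.0239% of tested genes were called, and for 0 with voom weights. ALDH1L2 alone had an unadjusted p under 0.05, with a difference of 0.41, the smaller decrease being in the libraries labelled sgKLHL14 (95% interval 0.024 to 0.80, adjusted p = 0.873), where 5.69% of tested genes passed that unadjusted threshold. MTHFD1 went the other way, at -0.16 (-0.32 to 0.0015, adjusted p = 0.879). The remaining differences lay between -0.076 for SHMT1 (-0.36 to 0.21) and 0.14 for CTH (-0.20 to 0.48). A missed threshold does not show that the responses were alike.

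**Figure D5:**
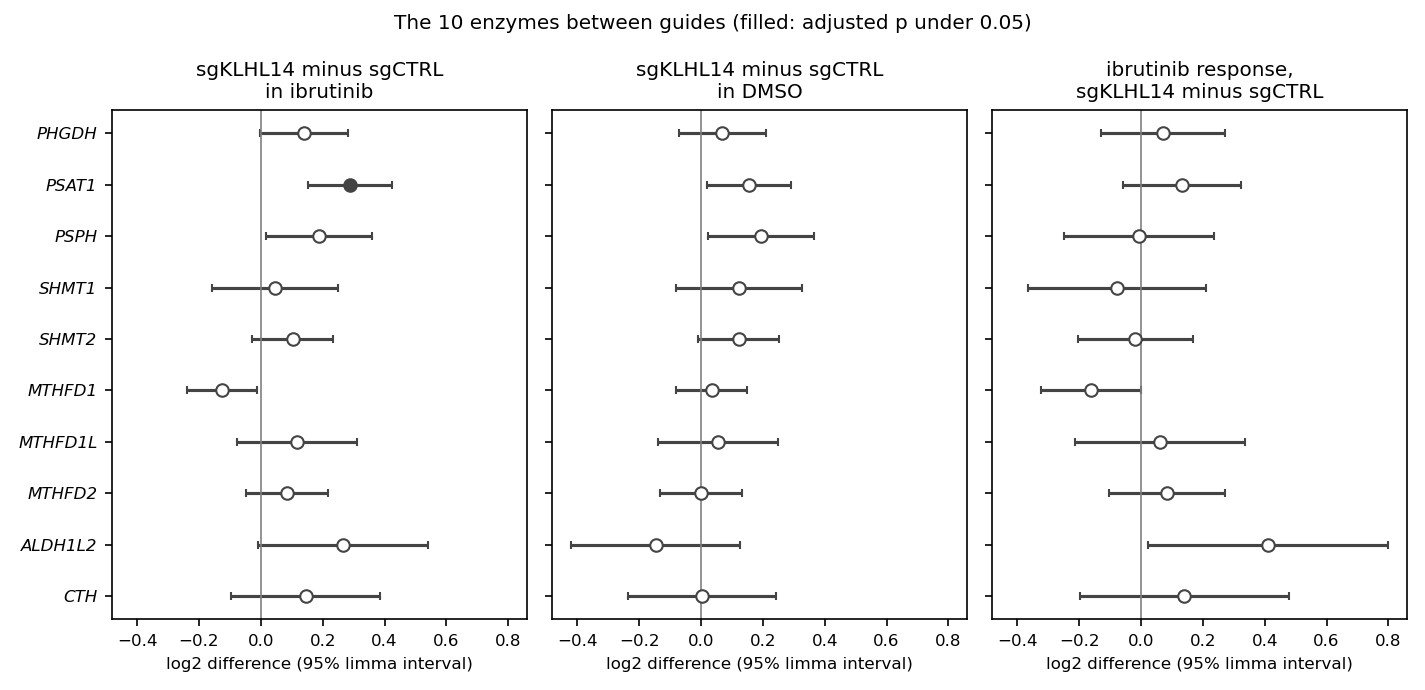
Log2 difference between guides for the 10 enzymes (horizontal axis), sgKLHL14 minus sgCTRL, in ibrutinib (left), in DMSO (middle) and for the ibrutinib response (right); points are limma estimates, bars 95% confidence intervals, and a filled point passed the test. PSAT1 in ibrutinib (0.29) is the 1 filled point, and ALDH1L2 has the widest intervals.

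Between guides, 1 of 12 tested cysteine and glutathione genes was called in ibrutinib and 1 in DMSO. Of the 11 genes of the regulator list, 2 were called in ibrutinib and 0 in DMSO. The other surrounding lists had 0 calls. Over all tested genes, 2.38% were called in ibrutinib and 1.64% in DMSO. SLC7A11, the cystine importer that supplies cysteine from outside the cell, was lower in the libraries labelled sgKLHL14, with log2 differences of -0.37 in ibrutinib (adjusted p = 0.0184) and -0.34 in DMSO (adjusted p = 0.0470). In ibrutinib MYC and TRIB3 were higher in them, by 0.27 (adjusted p = 0.0341) and 0.30 (adjusted p = 0.0449). In ibrutinib all 3 calls were lost without any 1 of the 4 ibrutinib libraries, at adjusted p up to 0.259 for SLC7A11, 0.430 for MYC and 0.520 for TRIB3, each without replicate 2 of sgCTRL ibrutinib. TRIB3 also lost its call without either sgCTRL DMSO library (adjusted p = 0.0589 and 0.0597), with voom weights (adjusted p = 0.112) and in a fit of the 2 groups alone (adjusted p = 0.0779). The 3 ibrutinib calls were lost too without the level filter, at adjusted p = 0.189 for SLC7A11, 0.171 for MYC and 0.0943 for TRIB3, and without the trend, at 0.263 for SLC7A11, 0.258 for MYC and 0.145 for TRIB3. The SLC7A11 call in DMSO was lost without any 1 of 7 libraries, all but replicate 2 of sgKLHL14 DMSO, and without replicate 1 of sgKLHL14 DMSO its value was -0.17 (adjusted p = 0.635).

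Some values carry a limit of counting. PSAT1, PSPH, SHMT1, MTHFD1 and MTHFD2 have named pseudogene copies in RefSeq, 4, 1, 1, 1 and 7 of them, with which reads may have been shared, so their values are uncertain to that extent. SHMT1, SHMT2, MTHFD1, MTHFD1L, MTHFD2 and ALDH1L2 overlap another annotated gene, and whether counting used strand is not given in the sources used here.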

How the data were processed

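Total RNA of TMD8 cells was made into poly(A) libraries with a stranded kit, per the labels' protocols, and read in pairs, per the series' design text. The tools named are bcl2fastq, STAR for alignment and HTSeq for counting, with hg19 as the build, per the submitters' processing notes. Their versions, the annotation, the strand setting and the normalization are not given in these sources. The deposited table has log2 values of normalized counts and, as a further row, total reads, which entered no test. Within 6e-04, 100% of the values are log2 of whole reads scaled by library, 1 read being worth 1.16 to 2.19 and 0 reads being listed at 0. There were 0 columns of other samples.

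Genes with a mean log2 value of at least 4.2 were tested (12531 of 25066), of which 0 had a library at 0 reads, so no pseudocount was needed. limma 3.58.1 in R 4.3.3 fitted 4 group means to all 8 libraries with a mean-variance trend (4 residual and 14.9 prior degrees of freedom), and 5 contrasts were Benjamini-Hochberg adjusted over all tested genes and called under 0.05. A log2 change is ibrutinib minus DMSO or sgKLHL14 minus sgCTRL. The contrasts share libraries. The members, lists and motifs were chosen with earlier results of these data known. Named genes are the 10 members, up to 3 called genes of a list with the smallest p per contrast, ATF4, NFE2L2, MYC, KLHL14 and BTK; the listed CDK1 appears in the table as CDC2. Single values of some genes in the folate list are not reported here. Other filters, a pseudocount of 16, median and quantile scaling, no trend, a robust prior, voom weights, 2-group fits, a replicate block and each library left out were tried as alternatives. Promoters and gene overlaps come from RefSeq GRCh38.p14, used for sequence, names and neighbours only. Intervals are limma's 95% intervals.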

Additional observations from a re-analysis of the deposited data

How the results depend on the processing

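All 10 enzymes kept their direction in both ibrutinib comparisons under every alternative tried, and 180 of 180 values kept their call with sgKLHL14 and 177 of 180 with sgCTRL. The other 3 were SHMT1: without the trend (adjusted p = 0.0566) and without replicate 1 of sgCTRL DMSO or replicate 2 of sgCTRL ibrutinib, as given above. Genes called with sgCTRL, 4403, ranged from 2902 to 4631 with 1 library left out.

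Counts between guides depended on the setting. In DMSO, 206 genes became 47 without the level filter, 25 without the trend and 368 with the replicate block, and ranged from 64 to 530 with 1 library left out. In ibrutinib, 298 became 155 without the level filter and 95 without the trend, with a left-out range of 122 to 363. Enzymes called there, 1, became 0 without the level filter and 0 without the trend, with a left-out range of 0 to 1. Genes called for the difference in response, 3, became 0 without the level filter, 0 without the trend and 5 with the replicate block. Whether replicate numbers pair the libraries across groups was not settled by the values. The difference between replicates correlated across groups at r between -0.055 and 0.12 over the 12531 genes, and a low correlation does not exclude pairing. With the replicate block more genes were called in every contrast, 4757 against 4403 for ibrutinib with sgCTRL and 432 against 298 between guides in ibrutinib. The replicate block changed no call of the 10 enzymes. Under it MYC with sgKLHL14 passed (-0.17, adjusted p = 0.0250).

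Small differences between guides changed sign. In DMSO, CTH was -0.013 with median scaling, -0.0059 with quantile normalization and -0.0035 with voom weights, and -0.038 to 0.048 with 1 library left out. MTHFD2 was -0.017, -0.015 and -0.00069 under the same settings, and -0.074 to 0.075 with 1 library left out. The left-out range of ALDH1L2 in DMSO was -0.37 to 0.076, and that of SHMT1 in ibrutinib -0.082 to 0.17. The difference in response of PSPH was 0.0065 with median scaling, 0.00063 with quantile normalization and 0.013 with voom weights, and -0.074 to 0.061 with 1 library left out. Left-out ranges of the difference also spanned 0 for MTHFD1L (-0.044 to 0.16), PHGDH (-0.013 to 0.16), SHMT1 (-0.20 to 0.051) and SHMT2 (-0.099 to 0.060). The cause of these shifts was not tested. The signs of these small differences between guides were not resolved with 2 libraries a group.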
